A study of Homo sapiens with 6 samples.

Results

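The aldo-keto reductase genes described here are 10 members of a superfamily of NADPH-dependent enzymes, AKR1A1, AKR1B1, AKR1B10, AKR1B15, AKR1C1, AKR1C2, AKR1C3, AKR1C4, AKR7A2 and AKR7A3. They were picked by gene symbol, with earlier results of these data known, and all 10 were found among the 20388 symbols of the expression table. RNA was sequenced from MHCC-97H, an established hepatocellular carcinoma line labelled wild type and grown in DMEM with fetal bovine serum. 3 libraries were of cells kept for 24 h in 2 µM GK921, which inhibits the protein-crosslinking enzyme transglutaminase 2 (TGM2), and 3 were of cells kept for 24 h with the solvent DMSO alone. The series title links TGM2 to histone serotonylation and MYC signalling, and the comparison asks how the transcripts of inhibitor-treated cells differ from those of solvent-treated cells. It is 1 line at 1 dose and 1 time, and no source states that the replicates of a group were separate cultures, so the p-values reflect library-to-library spread alone, and that spread may be technical.

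Aldo-keto reductases fold as a barrel, bind NADPH and reduce aldehydes and ketones to alcohols. In liver they clear reactive carbonyls from lipid peroxidation and diet, and individual members act on glucose, retinal, steroids, prostaglandins or bile acid precursors. AKR1B10 and the AKR1C enzymes are well known for high levels in liver cancer, and several family genes are textbook targets of NRF2 (NFE2L2), the transcription factor of the oxidative and electrophile stress response.

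The genes lie in 4 places in the genome (GRCh38, positions from GENCODE release 29). AKR1B1, AKR1B10 and AKR1B15 are neighbours at chr7:134442350-134579875. AKR1C1, AKR1C2, AKR1C3 and AKR1C4 are neighbours at chr10:4963253-5218949. AKR7A3 and AKR7A2 lie next to each other at chr1:19282558-19312146, and AKR1A1 stands alone at chr1:45550543-45570049. Within the clusters the coding sequences are close copies. AKR1C1 and AKR1C2 were identical at 950 of 969 aligned coding bases (98.0%), AKR1B10 and AKR1B15 at 91.7%, AKR7A2 and AKR7A3 at 91.2%, and AKR1B1 and AKR1B10 at 76.2%. Stretches of 100 bases that also occur in transcripts of another gene named AKR made up 23.1% of those of AKR1C2, 16.7% of those of AKR1C1 and 12.2% of those of AKR7A3, whose partner was AKR7L, and at most 1.75% of those of the other 7 members. The sources used here do not say how reads matching more than 1 gene were counted, so the separate values of AKR1C1 and AKR1C2, and those of AKR7A3, are less certain than the rest.

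The start regions of the members are shown because those of AKR1C1 and AKR1C2 are near copies, with lower identity to those of AKR1C3 and AKR1C4. RefSeq windows (GRCh38.p14, 250 bases before to 50 after a start) were matched for 8 of the 10 members and not for AKR1B10 and AKR1B15. The windows of AKR1C1 (chr10:4963165-4963464, plus strand) and AKR1C2 (chr10:5003808-5004107, minus strand) were identical at 288 of 296 aligned columns (97.3%). A window of AKR1C3 (chr10:5094164-5094463, plus strand), 1 of 2 listed for that gene, was identical to that of AKR1C1 at 75.3%. The window of AKR1C4 (chr10:5196587-5196886, plus strand) was identical to that of AKR1C1 at 62.7% and to that AKR1C3 window at 65.6%. These windows are printed 5′ to 3′ on the gene's strand, with any match to CCAAT, on either strand, in capitals.
AKR1C1: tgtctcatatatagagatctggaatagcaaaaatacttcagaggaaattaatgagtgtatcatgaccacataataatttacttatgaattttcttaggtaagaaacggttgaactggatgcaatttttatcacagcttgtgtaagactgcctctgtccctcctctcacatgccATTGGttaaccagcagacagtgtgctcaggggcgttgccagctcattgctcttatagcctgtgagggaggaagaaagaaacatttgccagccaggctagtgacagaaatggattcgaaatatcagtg
AKR1C2: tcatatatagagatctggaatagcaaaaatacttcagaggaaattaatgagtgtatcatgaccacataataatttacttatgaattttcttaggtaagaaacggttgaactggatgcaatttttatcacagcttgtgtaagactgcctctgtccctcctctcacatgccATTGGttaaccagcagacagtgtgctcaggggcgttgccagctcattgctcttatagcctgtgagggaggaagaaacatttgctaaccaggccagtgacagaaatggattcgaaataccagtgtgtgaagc
AKR1C3: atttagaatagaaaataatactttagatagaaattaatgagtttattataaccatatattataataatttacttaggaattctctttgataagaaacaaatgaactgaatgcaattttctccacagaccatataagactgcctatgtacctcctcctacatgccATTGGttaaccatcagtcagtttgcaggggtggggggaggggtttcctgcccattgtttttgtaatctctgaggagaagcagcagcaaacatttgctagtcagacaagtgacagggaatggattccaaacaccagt
AKR1C4: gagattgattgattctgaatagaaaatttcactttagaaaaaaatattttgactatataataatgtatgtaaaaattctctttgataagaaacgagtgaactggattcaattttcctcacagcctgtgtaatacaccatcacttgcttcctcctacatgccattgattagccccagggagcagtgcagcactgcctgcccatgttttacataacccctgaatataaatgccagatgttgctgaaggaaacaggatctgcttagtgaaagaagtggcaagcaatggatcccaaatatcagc

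CCAAT, on the opposite strand, began at position -77 from the start in AKR1C1, -81 in AKR1C2 and -86 in the printed window of AKR1C3, and had no match in the window of AKR1C4. It occurred on either strand in 34.6% of the 35116 RefSeq windows. AKR1B1 had it at position -98 from a start, on the strand of the gene. TGACNNNGC, the core of the antioxidant response element bound by NRF2, occurred in 13.3% of all windows. Of the members with a window it was found, on either strand, only in AKR7A2, with 3 matches, capitalised in the window at chr1:19312095-19312394, minus strand. CACGTG, the E-box bound by MYC and related factors, occurred in 7.26% of all windows. Among the members with a window only AKR1A1 held it, at position -9 from the start in the window chr1:45550576-45550875, plus strand, where it is capitalised. No member's window held matches to more than 1 of these 3 motifs. Sequence outside these windows was not searched, so a member without a match may hold one elsewhere.
AKR7A2: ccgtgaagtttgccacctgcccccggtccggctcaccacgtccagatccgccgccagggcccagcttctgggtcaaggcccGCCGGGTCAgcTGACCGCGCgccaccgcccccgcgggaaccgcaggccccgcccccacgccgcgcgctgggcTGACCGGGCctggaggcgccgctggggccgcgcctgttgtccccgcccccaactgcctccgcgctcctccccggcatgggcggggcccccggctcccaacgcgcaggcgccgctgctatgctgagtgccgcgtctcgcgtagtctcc
AKR1A1: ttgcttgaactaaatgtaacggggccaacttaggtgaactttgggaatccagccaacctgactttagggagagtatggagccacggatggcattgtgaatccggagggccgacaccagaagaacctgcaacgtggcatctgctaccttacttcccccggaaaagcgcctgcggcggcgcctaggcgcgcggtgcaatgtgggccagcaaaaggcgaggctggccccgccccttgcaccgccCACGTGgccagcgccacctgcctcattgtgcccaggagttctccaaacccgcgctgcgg

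The dominant members of the family fell after GK921 and AKR1A1 rose. Levels are in FPKM, fragments scaled by transcript length and library size. Genes averaging 1 FPKM or more across the 6 libraries were tested with limma on log2(FPKM + 1), where an adjusted p under 0.05 over all 11573 tested genes is called a change. All 10 members passed that limit, each with a mean above 1 FPKM in both groups. Of them 7 fell, where 29.2% of tested genes were called lower, 1 rose, where 46.8% were called higher, and 2 were not called. 6 members fell with a log2 change under -1, a size reached by 6.24% of tested genes. That count depends on the processing. With quantile normalization AKR1C1 was at -0.914 and AKR1C2 at -0.997, and with 5 FPKM added in place of 1 AKR1B15 was at -0.926. All 3 GK921 values lay below all 3 DMSO values for 7 members (30.0% of tested genes) and above them for 1 (48.0%), while the groups overlapped for AKR1C4 and AKR7A3. The median log2 change of the members was -1.08, against 0.16 over all tested genes. That median of all genes depends on the scaling of the libraries: with median-ratio scaling it was -0.0013, and 4221 genes were higher and 4374 lower, against 5411 and 3378 as deposited. The calls of these 8 members held under all 18 alternatives tried. A lower level in a bulk sample can come from fewer cells that express a gene or from less RNA per cell, which cannot be told apart here.

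**Figure D1:**
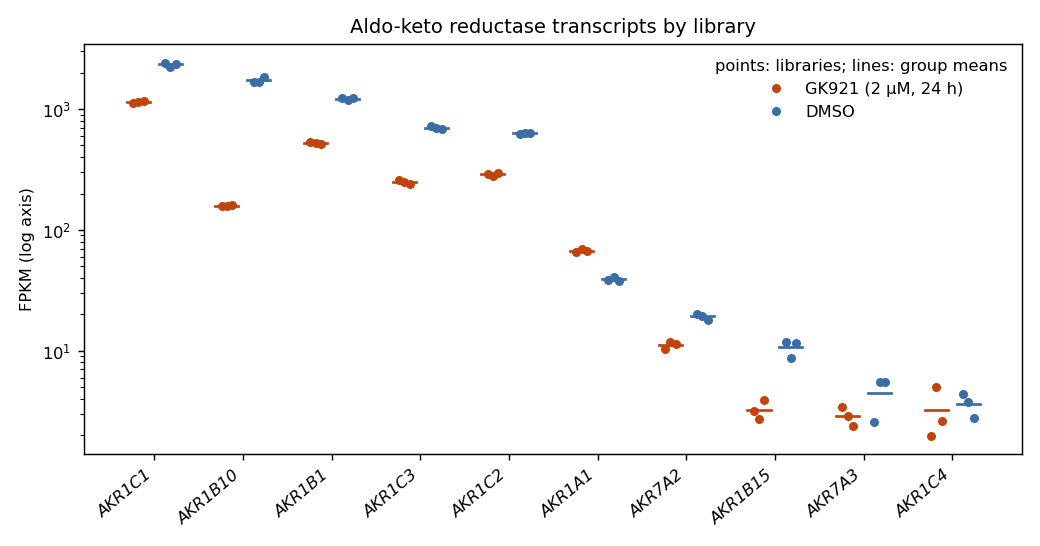
FPKM of the 10 aldo-keto reductase genes on a log axis, with GK921 libraries (orange) left of DMSO libraries (blue) for each gene; points are libraries and lines are group means. The groups are separate for 8 genes and overlap for AKR7A3 and AKR1C4, and only AKR1A1 lies higher after GK921.

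The largest change in the family was that of AKR1B10, which reduces retinal and lipid aldehydes and is little expressed in normal liver but abundant in many liver cancers. It had 157.93, 158.62 and 160.72 FPKM in GK921 libraries, against 1682.78, 1663.06 and 1842.17 FPKM in DMSO libraries. The 3 GK921 values lay close together and far under the lowest DMSO value. The mean fell to 159 ± 1.45 FPKM after GK921, against 1729 ± 98.2 FPKM in DMSO (SD, n = 3 libraries in each group, as for every mean here), 10.9-fold lower, with a log2 change of -3.43 ± 0.039 (SE, limma adjusted p = 7.48e-11). By level its mean ranked 812 among all symbols after GK921 and 42 in DMSO, and its log2 change was number 17 from the lowest of the tested genes.

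Its 2 cluster neighbours fell less. AKR1B1, the aldose reductase that opens the polyol pathway by turning glucose into sorbitol, had 535, 527 and 509.65 FPKM after GK921 and 1241, 1189.6 and 1238 FPKM in DMSO. Its mean of 524 ± 12.99 FPKM was 2.33-fold below the 1223 ± 28.9 FPKM of DMSO (log2 change -1.22 ± 0.028, limma adjusted p = 1.87e-09). AKR1B15, a close copy of AKR1B10 that acts on steroids and retinal, was present at low levels, at 3.2, 2.7 and 3.88 FPKM after GK921 and 11.83, 8.77 and 11.61 FPKM in DMSO. The 2 groups did not overlap, and its log2 change was -1.46 ± 0.14 (limma adjusted p = 1.39e-05), with means of 3.26 ± 0.592 FPKM after GK921 and 10.7 ± 1.71 FPKM in DMSO. AKR1B15 amounted to 1.70% to 2.41% of AKR1B10 after GK921 and 0.527% to 0.703% in DMSO, a comparison added after the values were seen.

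The AKR1C enzymes reduce keto groups of steroids and prostaglandins. AKR1C1, which inactivates progesterone, was the most abundant member in both groups, with 1117, 1144 and 1157 FPKM after GK921 and 2425, 2249.9 and 2372 FPKM in DMSO. All GK921 values lay far under the lowest DMSO value, and the mean was 2.06-fold lower (log2 change -1.04 ± 0.030, limma adjusted p = 6.51e-09). AKR1C2, which inactivates dihydrotestosterone and binds bile acids, had 290.1, 279.7 and 295.9 FPKM after GK921 and 626, 632 and 633 FPKM in DMSO, 2.18-fold lower (log2 change -1.12 ± 0.028, limma adjusted p = 2.84e-09). AKR1C3, which makes testosterone from androstenedione and also forms prostaglandin F, had 257, 250.89 and 239.65 FPKM after GK921 and 719, 698 and 686 FPKM in DMSO. It fell most within this cluster, 2.81-fold, with a log2 change of -1.49 ± 0.033 (limma adjusted p = 1.59e-09).

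AKR1C4, the most liver-restricted member, which acts on bile acid precursors, was near the lower end of the measured range. It had 1.98, 5.02 and 2.64 FPKM after GK921 and 4.38, 3.76 and 2.8 FPKM in DMSO. The highest value of all 6 was a GK921 library and the groups overlapped, with a log2 change of -0.19 ± 0.25 (95% interval -0.76 to 0.37, limma adjusted p = 0.501). That value rested on single libraries: without the first GK921 library the log2 change was 0.025 (limma adjusted p = 0.929), and without the second it was -0.48, a call of lower (limma adjusted p = 0.0410).

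AKR1A1, the general aldehyde reductase that also takes part in glucuronate metabolism, was the 1 member that rose. It had 65.35, 69.38 and 66.77 FPKM in GK921 libraries and 38.55, 41.09 and 37.67 FPKM in DMSO libraries, so that the lowest treated value lay well above the highest solvent value. The means were 67.2 ± 2.04 FPKM after GK921 and 39.1 ± 1.78 FPKM in DMSO, 1.72-fold higher, with a log2 change of 0.77 ± 0.048 (limma adjusted p = 7.96e-07). The change was 0.59 with median-ratio scaling and was called there too.

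The AKR7A enzymes reduce dialdehydes such as those of aflatoxin, and AKR7A2 also reduces succinic semialdehyde. AKR7A2 had 10.38, 11.88 and 11.43 FPKM after GK921 and 20.33, 19.48 and 18.1 FPKM in DMSO. It was 1.72-fold lower, without overlap of the groups (log2 change -0.73 ± 0.075, limma adjusted p = 1.99e-05). AKR7A3 had 3.43, 2.88 and 2.38 FPKM after GK921 and 2.55, 5.5 and 5.47 FPKM in DMSO, where the first DMSO library lay among the treated values. It was not called, with a log2 change of -0.45 ± 0.23 (95% interval -0.98 to 0.074, limma adjusted p = 0.104). Without that first DMSO library the change was -0.74 and was called lower (limma adjusted p = 0.00196), and it was also called lower with median-ratio scaling (-0.59, limma adjusted p = 0.0457) and quantile normalization (-0.69, limma adjusted p = 0.0257).

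**Figure D2:**
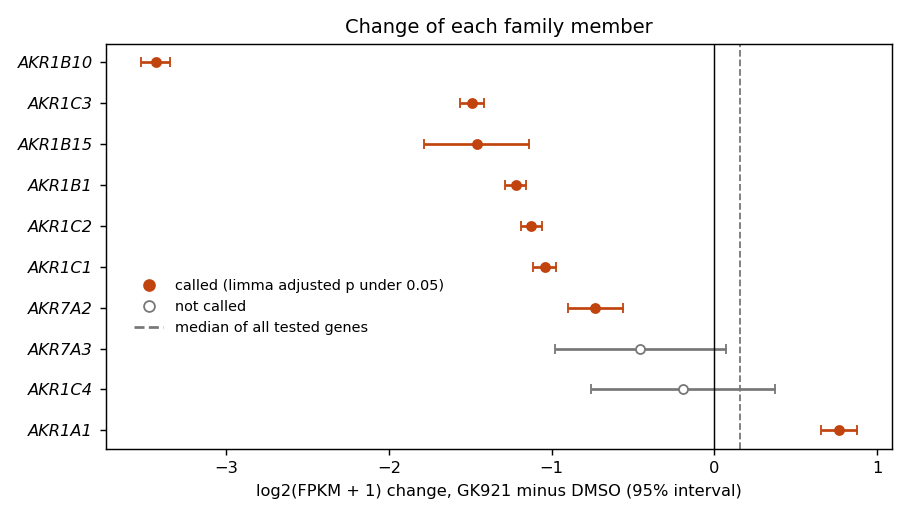
Change of each member on the log2(FPKM + 1) scale, GK921 minus DMSO, with its 95% interval from limma, filled where called; the dashed line is the median of all tested genes at 0.16. AKR1B10 stands at -3.43, apart from the 5 members between -1.04 and -1.49, and AKR1A1 is the 1 member right of the line at 0.77.

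Added together, the 10 members made up 2442, 2452 and 2449.8 FPKM in GK921 libraries and 6771, 6511 and 6847 FPKM in DMSO libraries. The summed mean was 2448 ± 5.35 FPKM after GK921 and 6709.7 ± 176 FPKM in DMSO, 2.74-fold lower, with complete separation of the groups (exact two-sided permutation p = 0.1, the smallest that 3 against 3 libraries allow). As a part of all FPKM of a library the family came to 0.294% to 0.298% after GK921 and 0.782% to 0.819% in DMSO.

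The makeup of that sum differed as well. AKR1B10 supplied 6.50% ± 0.0534 of it after GK921 and 25.8% ± 1.04 in DMSO. AKR1C1 supplied 46.5% ± 0.741 after GK921 and 35.0% ± 0.699 in DMSO, and AKR1C2 supplied 11.8% ± 0.347 after GK921 and 9.40% ± 0.266 in DMSO. AKR1B1 supplied 21.4% ± 0.559 after GK921 and 18.2% ± 0.129 in DMSO. AKR1A1 supplied 2.74% ± 0.0782 after GK921, against 0.584% ± 0.0423 in DMSO. For each of these 5 shares the groups were separate, at the smallest exact permutation p of 0.1. The share of AKR1C3 was 10.2% ± 0.380 after GK921 and 10.5% ± 0.380 in DMSO, and its groups overlapped (exact two-sided permutation p = 0.5). Each share depends on the other members of the sum, so a larger share need not be a larger amount.

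**Figure D3:**
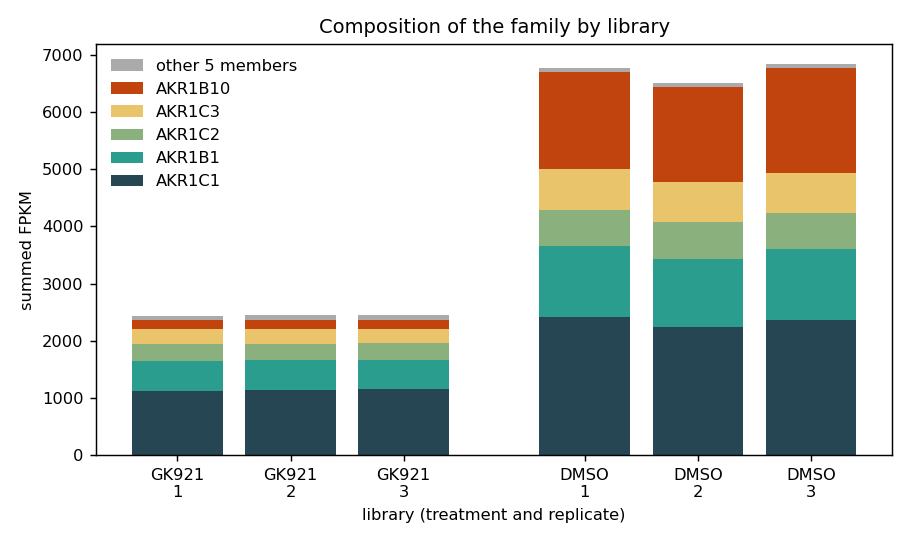
Summed FPKM of the family in each library, stacked by member from a zero base, with the GK921 libraries on the left and the DMSO libraries on the right. The GK921 bars reach about 2448 FPKM and the DMSO bars about 6709.7 FPKM on average, and the AKR1B10 block differs most between the groups.

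The order of levels, which FPKM allows because it is per length, differed between the groups. After GK921 it ran from AKR1C1 through AKR1B1, AKR1C2, AKR1C3, AKR1B10, AKR1A1 and AKR7A2 to AKR1B15, AKR1C4 and AKR7A3, the last 3 of which overlapped in their library values. In DMSO it ran from AKR1C1 through AKR1B10, AKR1B1, AKR1C3, AKR1C2, AKR1A1, AKR7A2 and AKR1B15 to AKR7A3 and AKR1C4, of which the last 2 overlapped. AKR1B10 thus stood below AKR1C3 after GK921 and directly below AKR1C1 in DMSO, and AKR1C2 and AKR1C3 changed places without overlap of their values in either group. The level of AKR1C2 depends on how reads it shares with AKR1C1 were counted, which is not stated, so that exchange of places is less certain. Replicates were tight for the abundant members: over the 5 genes above 100 FPKM in both groups, the coefficient of variation was 0.913% to 3.59% after GK921 and 0.578% to 5.68% in DMSO. For AKR1C4 it was 49.8% after GK921 and 21.8% in DMSO, against medians over all tested genes of 6.01% after GK921 and 5.63% in DMSO.

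Ratios of members within a library, which a scale factor per library cannot move, were compared for 5 pairs. The level of AKR1B10 was 0.295, 0.301 and 0.315 times that of AKR1B1 after GK921 and 1.36, 1.40 and 1.49 times in DMSO, so AKR1B10 was below its neighbour in every treated library and above it in every solvent library. The log2 ratio differed by -2.22 (means -1.72 ± 0.0491 after GK921 and 0.50 ± 0.0683 in DMSO). Against AKR1A1 the ratio of AKR1B10 was 2.29 to 2.42 after GK921 and 40.5 to 48.9 in DMSO, a difference of -4.22 in log2. AKR1C3 stood at 0.207 to 0.230 times AKR1C1 after GK921 and 0.289 to 0.310 times in DMSO, a difference of -0.45. These 3 pairs were fully separate between the groups, each with an exact two-sided permutation p of 0.1, the smallest possible, or 0.167 adjusted over the 5 pairs.

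For the near-identical pair AKR1C1 and AKR1C2 the ratios of the groups overlapped. AKR1C1 was at 3.85, 4.09 and 3.91 times AKR1C2 after GK921 and at 3.87, 3.56 and 3.75 times in DMSO, a log2 difference of 0.084 (exact permutation p = 0.2, adjusted 0.25). The ratio of AKR7A3 to AKR7A2 was 0.208 to 0.330 after GK921 and 0.125 to 0.302 in DMSO, also overlapping (exact permutation p = 0.8, adjusted 0.8). With 3 libraries a group neither test could pass 0.05, so these values do not show that the members of a pair changed alike.

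Of 6 other genes of the superfamily 3 reached the level needed for testing. Of these 3 genes 1 rose, where 46.8% of all tested genes were called higher and 29.2% lower. AKR1E2, a reductase of sugar-derived carbonyls that lies 177 kb from AKR1C1 by start position, had 6.49 ± 0.7497 FPKM after GK921 and 3.79 ± 0.798 FPKM in DMSO and rose (log2 change 0.66 ± 0.14, limma adjusted p = 0.00254). AKR7L, next to AKR7A3, had 1.16 ± 0.594 FPKM after GK921 and 1.76 ± 0.276 FPKM in DMSO and was not called (limma adjusted p = 0.125), though without the first GK921 library, or with quantile normalization, it was called lower. The potassium channel beta subunit KCNAB2 had 16.5 ± 1.49 FPKM after GK921 and 16.8 ± 0.140 FPKM in DMSO (limma adjusted p = 0.688), and was called lower with median-ratio and quantile scaling. KCNAB1 and KCNAB3 stayed under a mean of 1 FPKM, and AKR1D1, the steroid reductase of bile acid synthesis, had 0.11 to 0.33 FPKM after GK921 and was listed at 0 in every DMSO library. AKR1E2 was the 1 called gene of this list, and the others are named because they complete it.

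The counts of related lists that follow stand against 46.8% of all tested genes called higher and 29.2% called lower, and no list was tested as a set. Of 12 tested genes that control NRF2 8 rose and 3 fell (median log2 change 0.44). NFE2L2 itself had 155 ± 2.61 FPKM after GK921 and 84.7 ± 1.91 FPKM in DMSO, 1.83-fold higher (limma adjusted p = 3.86e-08). BACH1, a repressor that competes with NRF2 for the same DNA element, had 43.5 ± 0.518 FPKM after GK921 and 18.2 ± 2.25 FPKM in DMSO, 2.38-fold higher (limma adjusted p = 1.11e-06). The small MAF partner genes MAFF and MAFK rose 4.76-fold and 2.81-fold, the related factor NFE2L1 rose 2.95-fold, and RBX1, a subunit of the ligase that degrades NRF2, fell with a log2 change of -0.97. KEAP1, the sensor that holds NRF2 in check, was at 7.44 ± 1.01 FPKM after GK921 and 5.34 ± 0.721 FPKM in DMSO (limma adjusted p = 0.0128), which was not called under median-ratio or quantile scaling. BACH1, MAFK, NFE2L2 and KEAP1 were named for their roles after their values were seen. Of 28 other NRF2 targets 18 fell, where 29.2% of all tested genes did, and 7 rose (median log2 change -0.48). The glutathione peroxidase gene GPX2 was at 68.7 ± 9.38 FPKM after GK921 and 549 ± 7.71 FPKM in DMSO (log2 change -2.99). BLVRB, a biliverdin and flavin reductase, rose 3.35-fold.

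Among other enzymes that act on carbonyls and aldehydes, 13 of 18 carbonyl and quinone reductases and related dehydrogenases fell and 3 rose (median log2 change -0.38), where 29.2% of all tested genes fell and 46.8% rose. DHRS9, a retinol and steroid dehydrogenase, had 28.0 ± 1.00 FPKM after GK921 and 129.6 ± 5.41 FPKM in DMSO (log2 change -2.17), and DHRS7 rose 1.73-fold. Against the same shares, of 16 genes of lipid aldehyde clearance 13 fell and 2 rose (median -0.72). The aldehyde dehydrogenase gene ALDH1A1, which is on both lists and on the retinoid list, was at 159 ± 3.19 FPKM after GK921 and 1218 ± 10.2 FPKM in DMSO (log2 change -2.93, limma adjusted p = 1.88e-11). GSTA1, a glutathione transferase of detoxification, was at 1.10 ± 0.972 FPKM after GK921 and 10.8 ± 1.53 FPKM in DMSO, and ALDH3B1 rose 3.67-fold.

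Pathways that share single reactions with members had genes called in both directions, as had all tested genes, 29.2% lower and 46.8% higher. Of 4 tested genes on the polyol list, which also holds hexokinase and glucose transporter genes, 3 fell and 1 rose. SORD, which takes the sorbitol made by AKR1B1 on to fructose, had 24.0 ± 0.115 FPKM after GK921 and 38.0 ± 1.53 FPKM in DMSO (log2 change -0.64). The hexokinase gene HK1 fell with a log2 change of -1.04, and the glucose transporter gene SLC2A1 rose 2.20-fold. Of 13 retinoid genes 8 fell and 2 rose (median -0.39). The rises were RDH12, at 2.43 ± 0.292 FPKM after GK921 and 0.277 ± 0.240 FPKM in DMSO, and a small one of RDH14 (log2 change 0.25), named after its value was seen. The call of RDH14 was lost under quantile, upper-quartile and median-ratio scaling, and when replicate 2 or replicate 3 of GK921 or of DMSO was left out. That call was also lost with the replicate number as a block, and with limma's treat, whose null is a 1.2-fold change. Of 10 prostaglandin genes 7 fell and 3 rose (median -0.32), and with quantile normalization 1 rose. HPGD, which inactivates prostaglandins, had 48.7 ± 1.72 FPKM after GK921 and 214 ± 5.53 FPKM in DMSO (log2 change -2.11), the thromboxane synthase gene TBXAS1 fell with a log2 change of -1.39, and PTGES, a prostaglandin E synthase gene, rose 3.27-fold.

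Of 13 hydroxysteroid and steroid genes 8 rose and 5 fell (median 0.21), where 46.8% of all tested genes rose and 29.2% fell. With median-ratio or quantile scaling 5 rose, and the number that fell was 8 with no filter on low values and 3 with a mean of at least 5 FPKM. HSD17B14 and HSD17B7 rose 2.70-fold and 2.32-fold, while HSD17B2, which oxidises estradiol and testosterone, had 1.48 ± 0.193 FPKM after GK921 and 9.24 ± 0.916 FPKM in DMSO (log2 change -2.04). Of 8 bile acid synthesis genes 3 rose and 4 fell (median -0.19), and with counts this small neither list is read as having a direction. The sterol hydroxylase genes CYP27A1 and CYP39A1 fell with log2 changes of -1.99 and -0.59, and BAAT, which conjugates bile acids, rose 1.74-fold. Several genes stand on more than 1 of these lists, so the counts overlap.

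**Figure D4:**
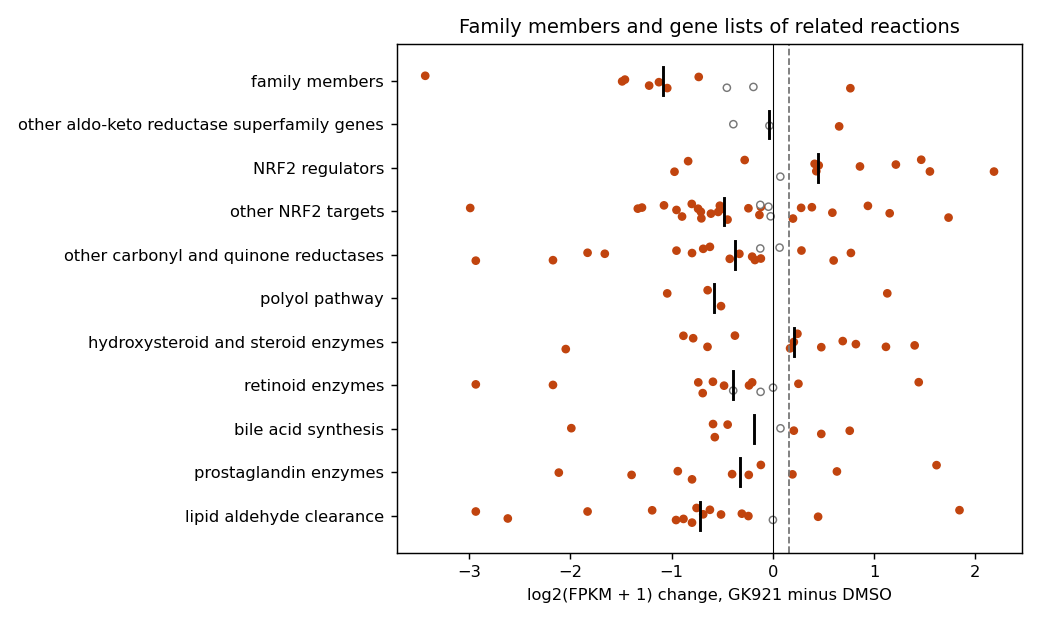
Change on the log2(FPKM + 1) scale, GK921 minus DMSO, of the family members and of the tested genes of 10 lists of related reactions; each point is a gene, filled where called by limma, black bars are medians, and the dashed line is the median of all tested genes. The family median of -1.08 lies left of the list medians, which run from -0.72 for lipid aldehyde clearance to 0.44 for NRF2 regulators.

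Genes around the members were called in both directions, as were all tested genes. Within 500 kb of a member by start position, 26 further genes were tested: 5 rose, 10 fell and 11 missed the threshold (median log2 change -0.098), against 46.8% higher and 29.2% lower over all tested genes. Around the AKR1B cluster, the red cell enzyme gene BPGM, 97.7 kb from AKR1B15, had 23.4 ± 1.43 FPKM after GK921 and 9.93 ± 1.28 FPKM in DMSO and rose (log2 change 1.16). On the other side of the cluster the sugar nucleotide transporter gene SLC35B4 fell with a log2 change of -0.71. Near the AKR1C cluster NET1, a guanine nucleotide exchange factor gene, fell (log2 change -0.99) and AKR1E2 rose as given above. Near AKR1A1 the histone chaperone gene NASP fell (log2 change -1.10) and CCDC163 rose (1.86), and near the AKR7A genes EMC1, of the membrane protein insertion complex, fell (-0.79) and TMCO4 rose (1.14).

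By likeness of profile, taken as the distance between mean-centred log2(FPKM + 1) values over the 6 libraries, the nearest to AKR1B10 of 3307 genes with at least 50 FPKM in one group was ANXA10, a calcium-binding annexin, at a distance of 0.18. It had 28.1 ± 1.35 FPKM after GK921 and 293.5 ± 6.41 FPKM in DMSO, 10.4-fold lower. CCNA2, a cyclin of S phase and mitosis, followed at 0.28, the adhesion gene CEACAM6 at 0.31 and the mitotic kinase gene PBK at 0.33, with log2 changes of -3.51, -3.67 and -3.64. With 2 groups of libraries this measure mostly ranks genes by the size of the group difference.

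The libraries were alike in total, at 821498 to 831992 FPKM after GK921 and 832453 to 836182 in DMSO, with 14214 to 14433 genes above 0 after GK921 and 13992 to 14163 in DMSO. The sources used here give no read totals. Steps between low FPKM values put the relative depth at 0.769 to 0.865 after GK921 and 0.870 to 1 in DMSO. Of 8 hepatocyte and liver cancer markers only HNF4A passed 1 FPKM (8.57 ± 1.68 FPKM after GK921 and 9.11 ± 1.14 FPKM in DMSO), and ALB was at 0.0533 ± 0.0551 FPKM after GK921 and 0.0933 ± 0.0451 FPKM in DMSO, so the secreted hepatocyte markers were all but absent from both groups. The 4 epithelial markers summed to 1862 to 1923 FPKM after GK921 and 2374 to 2379 in DMSO, nearly all of it KRT8 and KRT18. KRT8 was called lower, at 1100 FPKM after GK921 and 1633 FPKM in DMSO. KRT18 was called higher, at 787 FPKM after GK921 and 740 FPKM in DMSO. It was called in 13 of 18 alternatives, higher in 12 of them and lower in the other, with a log2 change of -0.089 at its lowest. CDH1 was not called, and EPCAM averaged under 1 FPKM in both groups. The 5 stromal markers summed to 1.07 to 1.45 FPKM after GK921 and 7.38 to 9.22 in DMSO, with COL1A1 at or under 0.00667 on average in each group. Most of the sum was DCN, called lower at 0.953 ± 0.196 FPKM after GK921 and 8.34 ± 0.969 FPKM in DMSO (limma adjusted p = 4.16e-07). PDGFRB, too low to be tested, was at 0.327 ± 0.0208 FPKM after GK921 and 0.0167 ± 0.0153 FPKM in DMSO. The 4 endothelial markers summed to 6.20 to 7.85 FPKM after GK921 and 5.23 to 5.77 in DMSO, with CDH5 listed at 0 in all libraries. KDR was called higher, at 2.69 FPKM after GK921 and 1.62 FPKM in DMSO, a call kept in 15 of 17 alternatives. PECAM1, at 3.94 FPKM after GK921 and 3.83 FPKM in DMSO, was not called. The 5 immune markers summed to 96.7 to 112 FPKM after GK921 and 104.7 to 112.6 in DMSO, nearly all of it CD68, with PTPRC at 0.413 FPKM after GK921 and 0.277 FPKM in DMSO. LYZ was at 2.03 ± 1.69 FPKM after GK921 and 0.303 ± 0.388 FPKM in DMSO. Neither CD68 nor LYZ was called, but each was called in 4 alternatives, CD68 lower and LYZ higher. The part of these markers in the results was not tested.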

How the data were processed

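RNA from 6 MHCC-97H libraries (3 with GK921, 3 with DMSO) was isolated with Trizol and made into libraries by standard Illumina protocols, per the labels. FPKM per gene symbol and library were deposited by the authors with 2 decimals. Tools listed in the submitters' processing notes, with no roles, are HISAT2, featureCounts, edgeR and FastQC 0.11.5, and the build is hg38. The sources used here do not state annotation, strandedness or the counting of multi-mapped reads.

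Sample titles gave each library's group and number. Values were used as deposited. R 4.3.3 with limma 3.58.1 tested log2(FPKM + 1) where a gene averaged 1 FPKM or more, with treatment as the only term, an intensity trend and Benjamini-Hochberg adjustment over all tested genes. Folds are ratios of mean FPKM, and log2 changes on this scale understate those of low genes. Ratios, sums and shares were compared by exact two-sided permutation with SciPy 1.17.1. The fit was tested on simulated data. Same-numbered libraries of the 2 groups did not deviate together (r = -0.0021 to 0.047), so no block was used.

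The members, lists and tests were chosen with earlier results of these data known, and the motifs with the sequences in view. Lists are described by counts and medians only. Named list genes are up to 3 called ones by size of change with both directions shown, and the rule's exceptions are stated where they occur; named neighbours are the 2 largest called changes per cluster. 2 listed NRF2 targets had no symbol match and were not analysed here. 1 NRF2 target that the rule names is not reported here. GENCODE release 29 gave positions for 18991 symbols and the transcripts compared with Biopython 1.88. Absolute depth is unknown, so no counting intervals are given.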

Additional observations from a re-analysis of the deposited data

How the results depend on the processing

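The 18 alternatives were pseudocounts of 0.1 and 5, no filter on low values and a mean of at least 5 FPKM, 4 rescalings, the replicate block, each library left out, no intensity trend, array weights and limma's treat, with a 1.2-fold change as its null. Adding 1 FPKM to both members of a ratio turned none of the 5 ratios. Leaving out the first DMSO library turned that of AKR7A3 to AKR7A2, from a log2 difference of 0.21 to -0.19. The calls and directions of AKR1A1, AKR1B1, AKR1B10, AKR1B15, AKR1C1, AKR1C2, AKR1C3 and AKR7A2 held in all 18, with AKR1B10 between -3.61 and -3.39 and AKR1A1 between 0.59 and 0.80 in log2 change. Members called lower numbered 7 or 8 and members called higher 1. The eighth was AKR7A3 or AKR1C4, and the log2 change of AKR1C4 ran from -0.48 to 0.025 with 1 library left out. With the replicate block 5351 tested genes were higher and 3355 lower, no member's call changed, and 1 retinoid gene rose in place of 2. Treat called 3595 genes higher and 2135 lower, since it asks for a larger change, and under it 1 carbonyl reductase, 5 steroid, 1 retinoid and 1 prostaglandin genes rose and 4 prostaglandin genes fell. The difference in summed FPKM of the family, -4262 as deposited, was -4805 with median-ratio scaling and -5078 with scaling to a common sum, both of which change the unit. Counts of called list members stayed within 1.5 times in 336 of the list comparisons, grew in 6 and shrank in 18. With no filter on low values 3 other superfamily genes and 2 genes of the polyol list rose, and with a mean of at least 5 FPKM 1 retinoid gene did. Absolute depth is unknown, and the members with the lowest levels, AKR1B15, AKR1C4 and AKR7A3, had the widest spread between libraries.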
